A study of Mus musculus with 14 samples.

Results

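The 36 genes described here carry out the tricarboxylic acid (TCA) cycle and the handling of pyruvate, its main fuel. They were chosen by symbol and were matched to the Ensembl identifiers of the RNA-seq table and the Entrez identifiers of the RIP tables. All 36 are among the 14837 genes of the RNA-seq table. Muscle stem cells (MuSCs), the cells that rebuild skeletal muscle after injury, were compared as a control group and a Lin28a+ group, both without further treatment. The study describes Lin28a+ MuSCs as sorted from the skeletal muscle of mice with Lin28a-CreERT2 and the red fluorescent reporter LSL-tdTomato. Both groups were grown in culture. The study does not state how the reporter was induced, or the origin and genotype of the control MuSCs. The age of the mice and whether the libraries of a pair came from separate animals or cultures are not given in the sources used here, so the p-values measure only the spread between these libraries, which may be technical. Each group had 2 input libraries (RNA-seq), 2 m6A-RIP libraries and 2 Igf2bp3-RIP libraries, and Lin28a+ MuSCs also had 2 Lin28a-RIP libraries. In RIP-seq, RNA is pulled down with an antibody, here against N6-methyladenosine (m6A, a methyl mark on RNA) or against the RNA-binding proteins Igf2bp3 or Lin28a, and peaks are the stretches where reads accumulate.

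Pyruvate enters mitochondria through a carrier and is turned into acetyl-CoA by the pyruvate dehydrogenase complex, which kinases switch off and phosphatases switch on. The cycle then oxidises the acetyl group and passes electrons to the respiratory chain, while its intermediates also leave for the synthesis of amino acids, lipids and glucose precursors. In muscle stem cells, the balance between glycolysis and mitochondrial oxidation is known to shift with activation and differentiation.

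The summed counts were 4842915 to 6220960 per input library, 21350962 to 31830638 for m6A-RIP, 9215355 to 34142094 for Igf2bp3-RIP and 33908110 to 36610494 for Lin28a-RIP. Pax7, Myod1 and Cdh15 and the other genes of the myogenic list (8 of 8) were measured, and the list summed to 9100 and 9380 CPM (counts scaled to a common library size) in control libraries against 11653 and 11772 in Lin28a+ libraries. Of its genes, Pax7, Myog and Cdh15 were called higher (edgeR, as below), Myf5 (log2 fold change -1.21), Des (-0.53) and Vcam1 (-1.93) lower, and Myod1 and Itga7 were not called. Myog, a driver of muscle differentiation, was at 753 and 768 CPM in controls against 2792 and 2833 CPM in Lin28a+ libraries, and the differentiation list of 6 genes, 3 of them called higher and 3 lower, summed to 1185 and 1209 CPM against 1991 and 2016 CPM. Actc1, the cardiac actin of early muscle, rose by more than the whole list, at 82.6 and 78.9 CPM against 1120.3 and 1098 CPM (3.75). The proliferation list of 4 genes summed to 320 and 329 CPM against 470 and 484 CPM, with 3 genes called higher and Mki67 lower (-0.19, edgeR adjusted p = 0.0125). Markers of other cells were low, though not all were in the RNA-seq table. It held 1 of 4 endothelial, 3 of 4 macrophage and 2 of 3 Schwann genes, none of which was tested. Those lists summed to at most 2.28 CPM. The fibro-adipogenic list summed to 4.46 and 6.91 CPM in control against 13.3 and 15.9 CPM in Lin28a+ libraries. Most of that was Ly6a, called higher (1.61), while Col1a1, the other of its genes tested, was not called. The pericyte or smooth muscle list summed to 5352 and 5358 CPM against 7488 and 7507 CPM, nearly all of it Acta2, with Rgs5 at no more than 2.39 CPM and called lower (-3.35) and Pdgfrb at no more than 4.43 CPM and called higher (1.27). These lists moved with the groups, and their part in the results below was not tested. In bulk libraries, fewer cells of a type and less RNA per cell cannot be told apart.

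The RNA levels of the 2 groups were tested with edgeR (quasi-likelihood) across 11317 genes, and a gene was called at a Benjamini-Hochberg adjusted p under 0.05. In the table of input counts, the columns for Lin28a+ MuSCs are named after m6A-RIP. They were taken as input because the labels of the Lin28a+ input samples name that table, and every RNA and relative-to-input value given here rests on that reading, which was not tested. Of the 36 genes, 16 were higher in Lin28a+ MuSCs, 7 were lower and 13 did not pass the test. Calls were common throughout the transcriptome, with 56.8% of all genes called, 28.1% higher and 28.7% lower. The median log2 fold change (Lin28a+ minus control) was 0.06 for these genes and 0.01 for all genes. A change of more than 2-fold was found for Pck2, Pdp1 and Pdk4, that is 3 of 36 genes, against 13.2% of all genes. DESeq2 called 16 of the 36 genes, without Mpc1, Mpc2, Pdhb, Dlat, Aco1, Suclg1 and Glud1, whose directions were the same. Standard errors (SE, after ±) were the log2 fold change divided by the square root of the F value of the edgeR test. In RNA, and in m6A-RIP relative to input, the SE can be smaller than the p-value implies. An example is Dlst (0.15 ± 0.03, edgeR unadjusted p = 0.0334). Such values may understate the error.

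**Figure D1:**
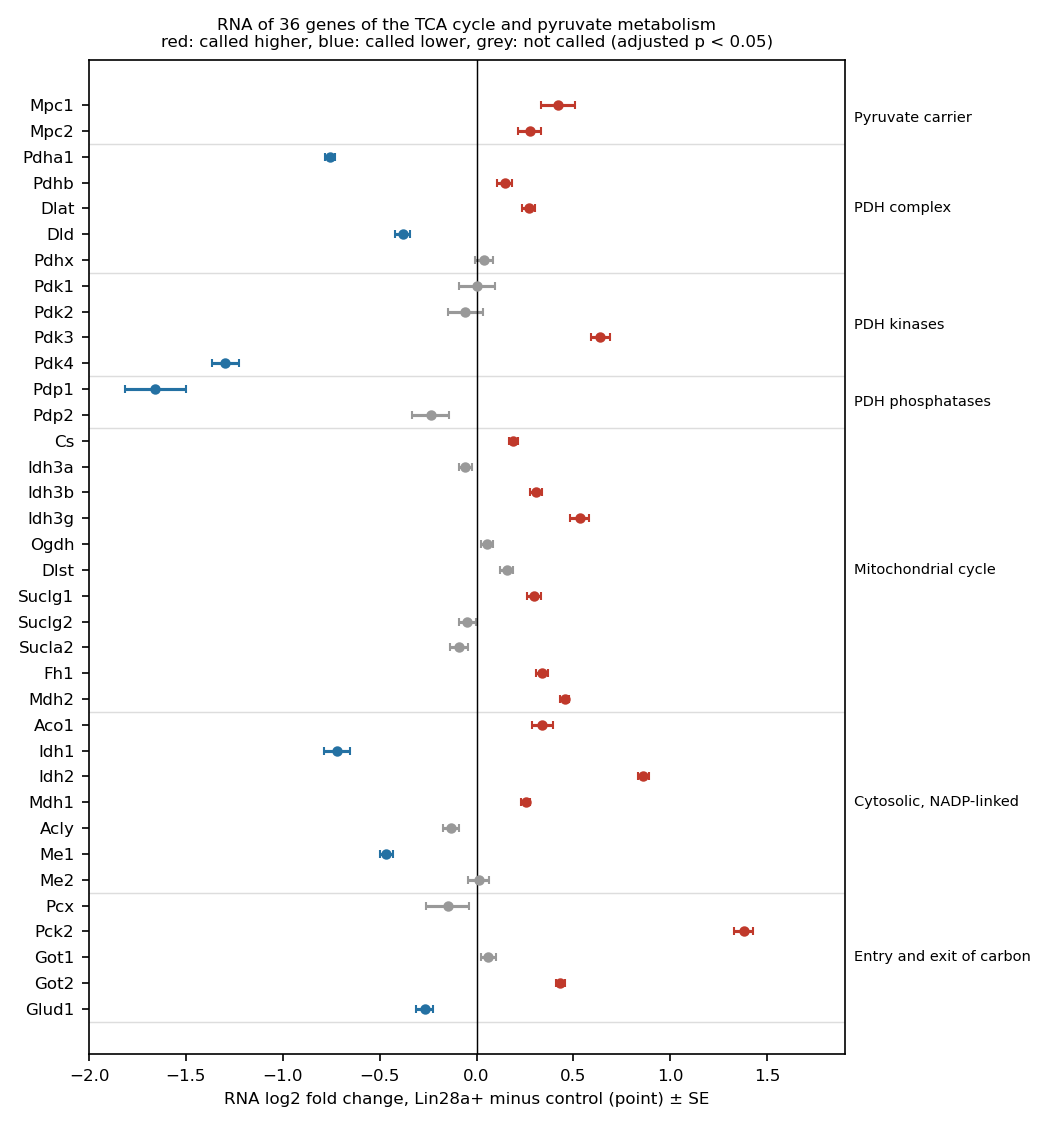
RNA log2 fold change (horizontal axis, Lin28a+ minus control, with SE bars, 2 libraries per group) for the 36 genes in rows grouped by role; red points were called higher, blue lower and grey not called. Pck2 stands farthest to the right at 1.38 and Pdp1 farthest to the left at -1.66. None of the 11 genes in the mitochondrial cycle rows was called lower. Dld, which the cycle shares, is drawn with the pyruvate dehydrogenase complex and was called lower (-0.38). The bars may understate the error, as described above.

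Both subunits of the mitochondrial pyruvate carrier, through which pyruvate crosses the inner membrane, were called higher. Mpc1 was at 11.6 and 12.8 CPM in controls against 15.7 and 17.1 CPM in Lin28a+ libraries, without overlap, a log2 fold change of 0.42 ± 0.09 (SE; edgeR adjusted p = 0.022). Mpc2 rose by 0.27 on the log2 scale (adjusted p = 0.0455). Neither call held in DESeq2. Leaving out any of the 4 input libraries ended the call of Mpc2, and leaving out control library 1 or a Lin28a+ library that of Mpc1 (lowest value 0.35). A pseudogene copy of Mpc1, Mpc1-ps, exists, so reads of Mpc1 may have been split and its value is uncertain.

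Of the 5 proteins of the pyruvate dehydrogenase complex, 2 were called higher and 2 lower, against 28.1% and 28.7% of all genes, and DESeq2 did not call those that were higher. Pdha1, the E1 alpha subunit that the kinases phosphorylate, was at 266 and 264 CPM in control libraries. In Lin28a+ libraries it was at 158 and 156 CPM, so that both lay below both controls, and the log2 fold change was -0.76 ± 0.03 (adjusted p = 1.60e-05). Dld, the E3 subunit that the complex shares with the oxoglutarate dehydrogenase complex, was at 114 and 115 CPM in controls against 90.1 and 85.02 CPM in Lin28a+ libraries, with a log2 fold change of -0.38 ± 0.04 (adjusted p = 4.88e-04). Dlat, the E2 subunit, went the other way, from 71.5 and 70.5 CPM to 85.4 and 85.6 CPM, a log2 fold change of 0.27 ± 0.03 (adjusted p = 0.00121). Pdhb, the E1 beta partner of Pdha1, rose by 0.14 (adjusted p = 0.0421), a call that leaving out any of the 4 input libraries ended. Pdhx, which tethers E3 to the core, had a log2 fold change of 0.04 ± 0.05 and was not called. The subunits of the complex therefore did not move together in RNA.

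The kinases that inactivate the complex also differed. Pdk4, the kinase known for its induction by fasting and fatty acids, was at 53.9 and 58.8 CPM in controls against 22.3 and 23.6 CPM in Lin28a+ libraries. It fell by 1.30 ± 0.07 on the log2 scale (adjusted p = 5.89e-05), with no overlap of the groups. Pdk3 was at 33.0 and 31.3 CPM in controls against 50.4 and 49.6 CPM in Lin28a+ libraries, a log2 fold change of 0.64 ± 0.05 (adjusted p = 1.78e-04). Pdk1 and Pdk2 were near 7 and 10 CPM in all 4 libraries, with overlapping groups and log2 fold changes of 0.00 ± 0.09 and -0.06 ± 0.09. Of the phosphatases that reactivate the complex, Pdp1 had 7.47 and 6.52 CPM in controls against 2.36 and 2.08 CPM in Lin28a+ libraries. It fell by 1.66 ± 0.16 (adjusted p = 3.81e-04), the largest decrease among the 36 genes, while Pdp2 had a log2 fold change of -0.24 ± 0.10 and did not pass (adjusted p = 0.0897).

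Among the 11 enzymes and subunits of the mitochondrial cycle, 6 were called higher, 0 lower and 5 not, against 28.1% of all genes higher and 28.7% lower, and of the 6 DESeq2 did not call Suclg1. These counts leave out Dld, called lower (-0.38), which is also the E3 of oxoglutarate dehydrogenase and is grouped here with the pyruvate dehydrogenase complex. Mdh2, the mitochondrial malate dehydrogenase, was at 291 and 293 CPM in controls against 399 and 401 CPM in Lin28a+ libraries, a log2 fold change of 0.45 ± 0.02 (adjusted p = 4.77e-05). The other 5 were the isocitrate dehydrogenase 3 subunits Idh3g (0.53) and Idh3b (0.31), the fumarase Fh1 (0.34), the succinyl-CoA ligase alpha subunit Suclg1 (0.30) and the citrate synthase Cs (0.19). The catalytic subunit Idh3a was not called (-0.06 ± 0.04), nor were the beta subunits of succinyl-CoA ligase, Suclg2 (-0.05 ± 0.05) and Sucla2 (-0.09 ± 0.05). Ogdh (0.06 ± 0.03) and Dlst (0.15 ± 0.03, adjusted p = 0.0577), the E1 and E2 of oxoglutarate dehydrogenase, were also not called. The subunits of isocitrate dehydrogenase 3 and of succinyl-CoA ligase thus included called and uncalled genes, and the difference between subunits was not tested.

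The NADP-linked isocitrate dehydrogenases went in opposite directions. Idh2, the mitochondrial enzyme, was at 124 and 127 CPM in controls against 227 and 227 CPM in Lin28a+ libraries, a log2 fold change of 0.86 ± 0.03 (adjusted p = 1.26e-05). Idh1, the cytosolic enzyme, was at 32.5 and 32.3 CPM in controls against 18.7 and 20.6 CPM in Lin28a+ libraries, a log2 fold change of -0.72 ± 0.06 (adjusted p = 3.15e-04). Me1, the cytosolic NADP-linked malic enzyme, fell by 0.47 (adjusted p = 1.30e-04), and its mitochondrial relative Me2 had a log2 fold change of 0.01 ± 0.05. The cytosolic malate dehydrogenase Mdh1 rose by 0.25 (adjusted p = 4.52e-04) and the cytosolic aconitase Aco1 by 0.34 (adjusted p = 0.00296). Acly, which splits citrate into acetyl-CoA for lipid synthesis, was not called (-0.13 ± 0.04, adjusted p = 0.131).

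Pck2, the mitochondrial phosphoenolpyruvate carboxykinase that draws carbon out of the cycle from oxaloacetate, showed the largest increase. It was at 18.1 and 18.3 CPM in controls against 47.2 and 47.4 CPM in Lin28a+ libraries, a log2 fold change of 1.38 ± 0.05 (adjusted p = 1.82e-05), and the groups lay far apart. Got2, the mitochondrial aspartate aminotransferase, rose by 0.43 (adjusted p = 5.37e-05), with a pseudogene copy, Got2-ps1, in the same table, so its value is uncertain. Glud1, which links glutamate to oxoglutarate, fell by 0.27 (adjusted p = 0.00306). Pcx, which carboxylates pyruvate to oxaloacetate, and Got1, the cytosolic aminotransferase, had log2 fold changes of -0.15 ± 0.11 and 0.06 ± 0.04 and were not called.

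**Figure D2:**
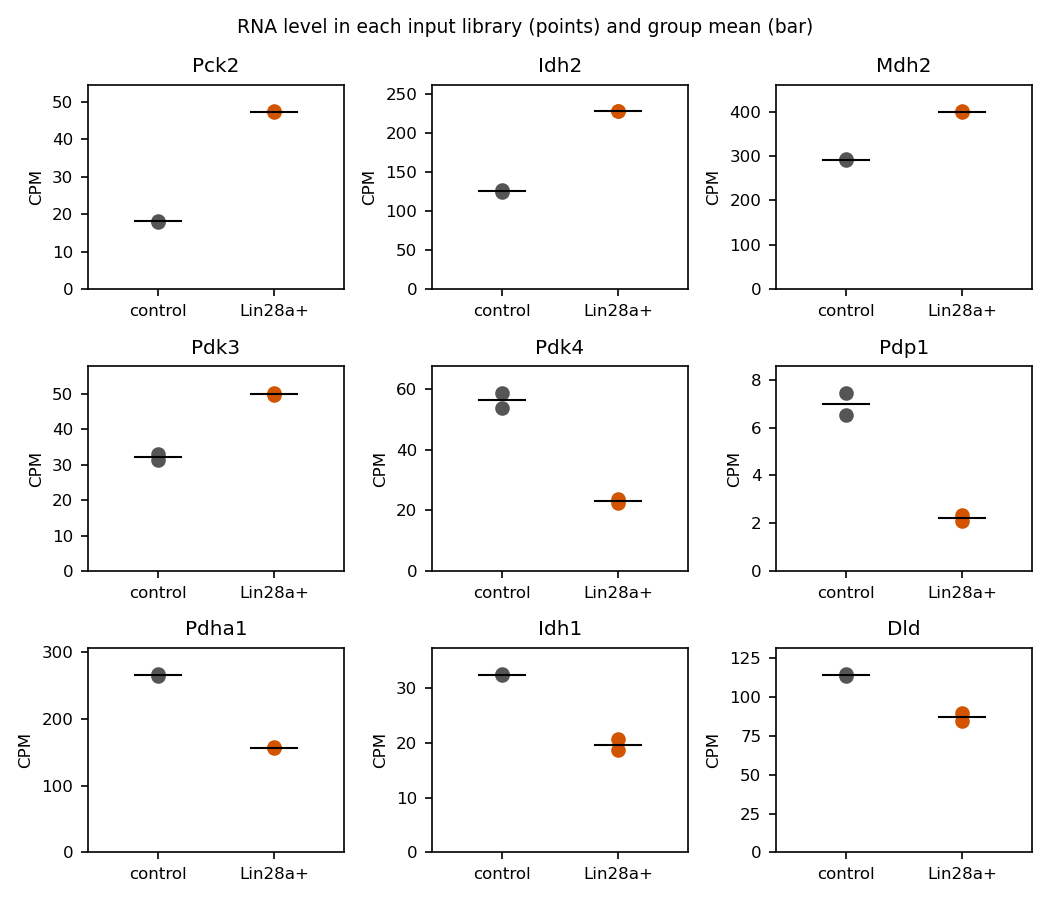
RNA level in CPM (vertical axes from 0) in each of the 2 control and 2 Lin28a+ input libraries for 9 genes, with points for libraries and bars for group means. Pck2 rises from 18.1 and 18.3 to 47.2 and 47.4 CPM while Pdk4 falls from 53.9 and 58.8 to 22.3 and 23.6 CPM.

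The 250 bases before the start site that the RefSeq promoter table uses for Pck2 and for Pdk4, the gene with the largest rise and the kinase with the largest fall, are given from RefSeq (GRCm38.p6), each 5′ to 3′ on the strand of the gene, with matches to TGATGNAA, a C/EBP-ATF response element, in capitals. Pck2 lies on the plus strand (chr14:55540016-55540265) and Pdk4 on the minus strand (chr6:5496279-5496528). The Pck2 window reaches 3 bases into the RefSeq span of the gene, and that of Pdk4 ends at its edge.
Pck2: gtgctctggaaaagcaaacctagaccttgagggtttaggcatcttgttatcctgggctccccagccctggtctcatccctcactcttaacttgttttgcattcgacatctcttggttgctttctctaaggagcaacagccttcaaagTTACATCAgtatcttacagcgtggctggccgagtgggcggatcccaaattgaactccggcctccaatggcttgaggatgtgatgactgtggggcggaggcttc
Pdk4: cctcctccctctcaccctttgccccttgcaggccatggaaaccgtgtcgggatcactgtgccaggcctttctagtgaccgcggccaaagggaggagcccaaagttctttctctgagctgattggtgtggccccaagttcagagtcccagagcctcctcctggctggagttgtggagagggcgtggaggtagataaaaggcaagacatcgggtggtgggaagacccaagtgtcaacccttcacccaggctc
In all, 9 motifs were searched on both strands of the 250-base windows, and the marked motif was chosen after all matches had been seen. It was found in 3.45% of 32851 RefSeq promoters and, of the 33 genes of the set with a promoter entry, in Got1 and Pck2. In Pck2 it begins 103 bases before that start site. The others were AAGGTCA (4.08% of all promoters; Got1), GTAAACA (3.17%; no gene of the set), the E-box CANNTG (66.2%; 24 genes, Pdk4 among them), the NRF1 motif (3.74%; Sucla2), TGATGCAA (0.791%; Got1; each match is also one of TGATGNAA), TCACNNCAC (3.11%; Ogdh and Pdhb), TGACNNNGC (10.2%; Dlst, Idh3g, Mpc1 and Sucla2) and a direct repeat of the nuclear receptor half-site (0.0335%; no gene of the set). A match describes the letters in a window and was not tested as a binding site.

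Other genes of the pathway, 53 in all, were counted beside these. Of 43 that were tested, 21 were higher, 6 were lower and 16 were not called, with a median log2 fold change of 0.23, where 28.1% of all genes were higher and 28.7% lower, with a median of 0.01. The 3 rises with the smallest p were Sdhb, the iron-sulphur subunit of succinate dehydrogenase (0.78), Glul, the glutamine synthetase (1.11), and Ldhb, a lactate dehydrogenase subunit (1.13). The 3 falls were Slc16a1, a carrier of lactate and pyruvate (-0.35), Pdpr, the regulatory subunit of the phosphatase of pyruvate dehydrogenase (-0.61), and Slc25a13, a mitochondrial aspartate-glutamate carrier (-1.70).

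The m6A-RIP table held 38 rows in 23 of the 36 genes, and 66.5% of all expressed genes had a row. Summed per gene, 8 of the 23 were higher in Lin28a+ MuSCs, 5 were lower and 10 were not called, where 66.3% of all 9416 genes were called, 32.5% higher and 33.8% lower. Scaled to total counts in place of TMM factors, 7 were higher and 7 lower. Per row, 19 of 38 were called, 13 higher and 6 lower, against 61.8% of all rows. These counts rise and fall with the amount of RNA as well as with the mark.

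Among the 23 genes with a row, Pck2, Pdk4 and Pdp1, which changed more than 2-fold in RNA, changed in the same direction in m6A-RIP. Pdha1, Idh1 and Pdk3 had no row. Pck2 was at 107 and 108 CPM in controls against 251 and 254 CPM in Lin28a+ m6A-RIP libraries (log2 fold change 1.24 ± 0.04, adjusted p = 9.70e-11). Pdk4 went from 40.4 and 37.6 to 20.5 and 15.7 CPM (-1.12 ± 0.11, adjusted p = 1.94e-06). Pdp1 went from 28.7 and 32.5 to 11.3 and 11.5 CPM (-1.42 ± 0.11, adjusted p = 2.33e-07). In each of these genes both Lin28a+ libraries lay on the same side of both controls. Idh2 was at 49.75 and 50.82 CPM in controls against 79.71 and 76.45 CPM in Lin28a+ libraries (0.63 ± 0.06, adjusted p = 9.55e-07), and Dld at 11.77 and 11.03 against 7.65 and 6.96 CPM (-0.65 ± 0.15, adjusted p = 0.00237). Dlat, at 20.9 and 18.4 against 25.5 and 22.5 CPM, was called at the edge of the threshold (0.28 ± 0.11, adjusted p = 0.0396) and lost the call in DESeq2, with total counts, without control library 2 and without a Lin28a+ library. Mdh2 (0.43), Idh3g (0.48), Got2 (0.34) and Dlst (0.25) also rose, and Me1 (-0.46) and Pdp2 (-0.42) fell, the last losing its call without control library 1 or without either Lin28a+ library.

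Tested relative to input, as the interaction of assay and cells in 1 edgeR model, 3 of 23 genes were called against 7.18% of all 8054 genes. Cs had the m6A-RIP change below its RNA change by 0.36 (log2 difference -0.36 ± 0.05, adjusted p = 0.00195). In Cs the RNA rose by 0.19, while m6A-RIP was at 42.4 and 40.5 CPM in controls against 38.2 and 36.6 CPM in Lin28a+ libraries and was not called on its own. Idh2 rose less in m6A-RIP than in RNA (-0.24 ± 0.05, adjusted p = 0.0215), a call that DESeq2, leaving out any input library or leaving out m6A-RIP control library 2 ended. The remaining gene, Pdk2, rose in m6A-RIP without a change in RNA that passed the test (1.18 ± 0.19, adjusted p = 0.00292). Pck2 (-0.16 ± 0.08), Pdk4 (0.16 ± 0.18) and Pdp1 (0.24 ± 0.27) were not called relative to input.

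**Figure D3:**
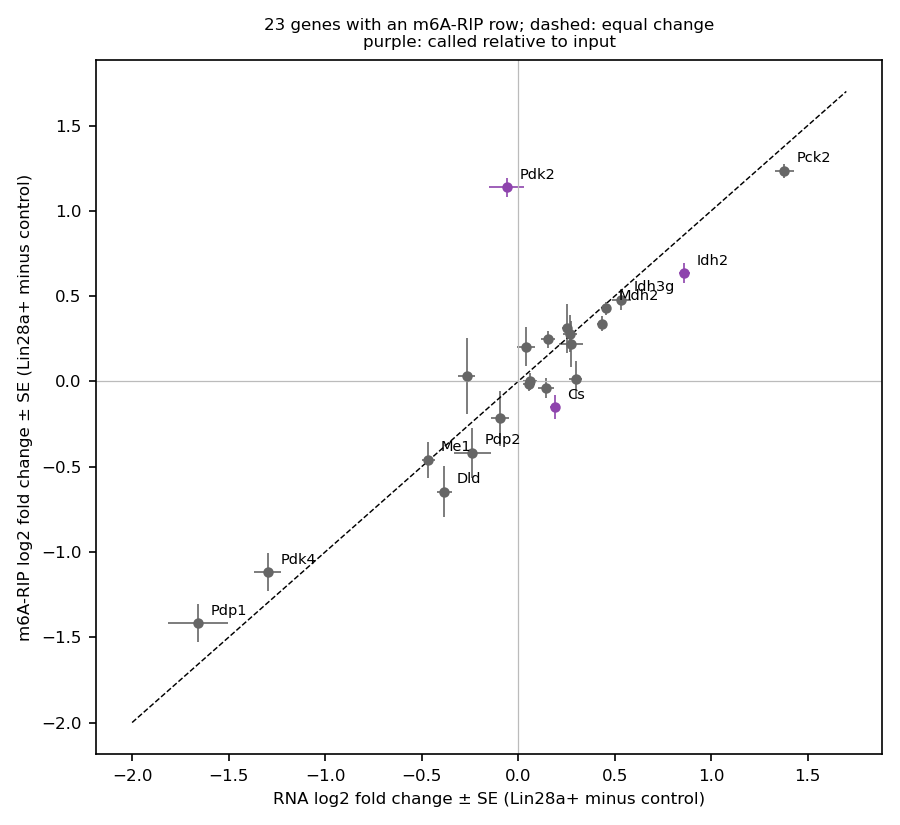
RNA log2 fold change (horizontal) against m6A-RIP log2 fold change (vertical), both Lin28a+ minus control with SE bars, for the 23 genes with an m6A-RIP row; the dashed line marks equal change and purple points were called relative to input. Most genes lie along the line from Pdp1 to Pck2, and Pdk2 lies far above it, at -0.06 in RNA and 1.14 in m6A-RIP. The RNA bars may understate the error, as described above.

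Pdk2 was at 61.7 and 59.2 CPM in controls against 140 and 126 CPM in Lin28a+ m6A-RIP libraries (log2 fold change 1.14 ± 0.06, adjusted p = 4.60e-09). Of its 2 rows, that of transcript ENSMUST00000038431 rose by 1.37 and that of ENSMUST00000126730 by 0.56. The RIP peaks that the tables assign to Pdk2 lie outside it. Pdk2 spans chr11:95026258-95041371 (GRCm38.p6), and its 3 Lin28a-RIP peaks and 2 Igf2bp3-RIP peaks lie 3157 to 5600 bp beyond that span, within the span of the integrin gene Itga3 (chr11:95044475-95076844). Itga3 RNA was at 21.1 and 19.8 CPM in controls against 49.8 and 52.0 CPM in Lin28a+ libraries (log2 fold change 1.28 ± 0.06, adjusted p = 3.74e-05). The m6A-RIP rows carry no positions, so whether those of Pdk2 also lie in Itga3 was not tested, and values of Pdk2 in the RIP tables are uncertain.

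Lin28a-RIP peaks, which were measured in Lin28a+ MuSCs alone, were assigned to 17 of the 36 genes, against 25.7% of all expressed genes. Without the peaks of Pdk2, 16 remain. The share of genes with a peak also rose with the RNA count, from 15.98% in the least expressed genes to 30.8% and 30.3% in the middle and the most expressed of 3 equal groups, and 27 of the 36 genes, 14 of them with a peak, were in the last. There were 73 peaks, with a median of 3 per bound gene, as over all bound genes. They were found in 3 of 5 proteins of the pyruvate dehydrogenase complex, 6 of 11 mitochondrial cycle genes, 5 of 7 cytosolic and NADP-linked enzymes, 2 of 5 genes for the entry and exit of carbon, 1 of 4 kinases (Pdk2, whose peaks lie in Itga3, as above), and in 0 of 2 pyruvate carrier subunits and 0 of 2 phosphatases. Peak numbers were not scaled by transcript length, and no Lin28a-RIP of control MuSCs was analysed here.

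Acly had 16 peaks, more than any other of these genes, which summed to 406.5 and 385.4 CPM of the 2 Lin28a-RIP libraries and spread over much of its span. Aco1 had 11 peaks (236 and 234 CPM), Dld 7 (310 and 313 CPM), Sucla2 7 (225 and 221 CPM) and Dlat 6 (161 and 164 CPM). Pdha1 had 3 peaks with 362 and 353 CPM, most of it in a 1762 bp peak at chrX:160122365-160124126 that also reaches into the span of Map3k15. Glud1 had 4 peaks, Pck2, Idh1 and Ogdh 3 each, and Suclg1 2, of which 1 lies 11069 bp outside Suclg1. Idh2, Idh3a, Dlst, Fh1 and Me2 had 1 peak each. The libraries of the pair gave like values for each gene. In all, 69 of the 73 peaks lay within the span of their gene.

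**Figure D4:**
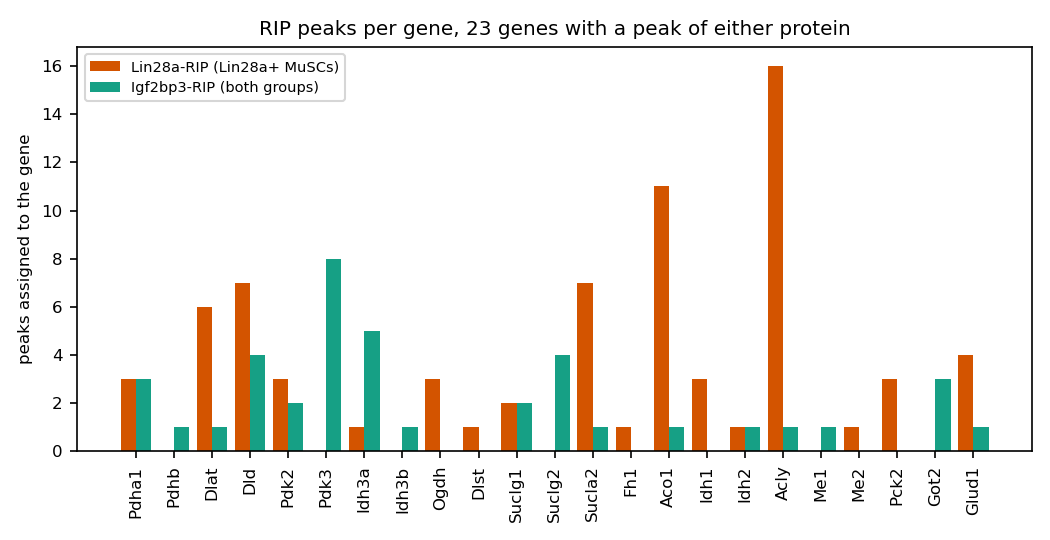
Number of Lin28a-RIP peaks (orange, Lin28a+ MuSCs) and Igf2bp3-RIP peaks (green) assigned to each of the 23 genes with a peak of either protein, ordered by role. Acly has 16 Lin28a-RIP peaks and 1 Igf2bp3-RIP peak, and Pdk3 has 8 Igf2bp3-RIP peaks and no Lin28a-RIP peak.

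RNA calls were set beside binding. Of the 17 genes with a Lin28a-RIP peak, 6 were higher, 4 lower and 7 not called, with a median log2 fold change of 0.01. Of the 19 without, 10 were higher, 3 lower and 6 not called, with a median of 0.14. Over all expressed genes, 20.5% of those with a peak were higher and 42.5% lower, and 30.8% and 23.9% of those without. Pck2, Idh2, Dlat and Dld had a Lin28a-RIP peak and a call in both RNA and m6A-RIP, the first 3 of these higher and Dld lower. Pdk4 and Pdp1 had no peak of either protein.

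Igf2bp3-RIP peaks were assigned to 17 of the 36 genes, against 33.3% of expressed genes, with 40 peaks in all. Of the 36 genes, 11 had peaks of both proteins, 6 of Lin28a alone, 6 of Igf2bp3 alone and 13 of neither, and 7 had peaks of both and an m6A-RIP row. Counting only peaks inside the span of their gene, a rule added after seeing the data, 15 genes had an Igf2bp3-RIP peak, 10 had peaks of both proteins and 6 of these an m6A-RIP row. Pdk3 had 8 peaks, all 1397 to 8862 bp outside its RefSeq span where no other gene is annotated, Idh3a had 5, and Dld and Suclg2 4 each. Of the 73 Lin28a-RIP peaks, 17 (23.3%) shared 1 bp or more with a peak of Igf2bp3, against 52.4% of the Lin28a-RIP peaks of all genes. Of the 40 Igf2bp3-RIP peaks, 17 (42.5%) shared bases with a peak of Lin28a. The share over all Igf2bp3-RIP peaks was not taken, nor that of all genes with peaks of both proteins. By Lin28a-RIP peak, all 3 in Pdha1 and 4 of 7 in Dld shared bases with one of Igf2bp3, whereas 1 of 16 in Acly and 1 of 11 in Aco1 did. Every Igf2bp3-RIP peak of these genes shared bases with one of Lin28a.

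**Figure D5:**
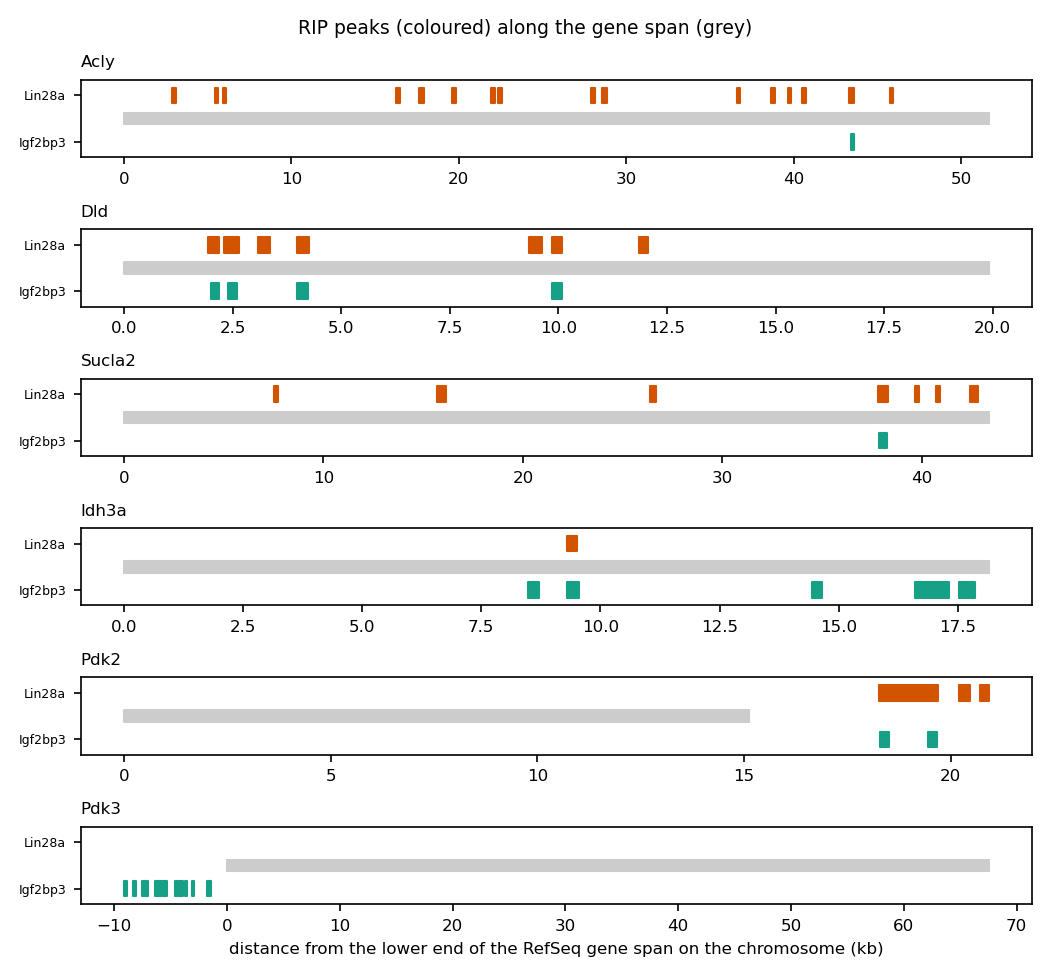
Lin28a-RIP peaks (orange) and Igf2bp3-RIP peaks (green) along the RefSeq span (grey) of 6 genes, with the distance in kb from the lower end of the span on the chromosome. The Acly peaks are spread along the gene, 4 of the 7 Lin28a-RIP peaks of Dld share bases with those of Igf2bp3, and those of Pdk2 and Pdk3 lie outside the span.

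Igf2bp3-RIP was also compared between the groups. With edgeR, 0 of 40 peaks were called (0.123% of all peaks were), 2 passing an unadjusted p of 0.05 where 1017 of all 19465 did, and 0 of 17 genes (0.287% of all genes), 1 passing unadjusted where 382 of all 4527 did. DESeq2 called 0 peaks and 0 genes of the set. The gene was Pdk2 and so were both peaks, those that lie in Itga3. Summed, they were at 28.7 and 22.5 CPM in controls against 42.3 and 49.2 CPM in Lin28a+ libraries, a log2 fold change of 0.84 ± 0.25 (edgeR adjusted p = 0.425). The other 16 genes had log2 fold changes from -0.49 ± 0.53 (Pdhb) to 0.32 ± 0.20 (Suclg2). None of them was called, which does not show that the groups were alike. With the replicate number as a block, Pdk2 and more peaks were called, as given at the end.

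Relative to input, 0 of 17 genes were called by edgeR, against 1.08% of all 3967 genes, and 5 passed an unadjusted p of 0.05, where 954 of all 3967 genes did. DESeq2 called 1, Idh2, and its count over all genes is not given here, so the 2 cannot be compared. The 5 were Dlat (-0.80 ± 0.16, adjusted p = 0.0628), Idh2 (-1.56 ± 0.38, adjusted p = 0.0837), Acly (-0.57 ± 0.20, adjusted p = 0.151), Aco1 (-0.78 ± 0.28, adjusted p = 0.164) and Pdk2 (0.68 ± 0.25, adjusted p = 0.169). Without Lin28a+ Igf2bp3-RIP library 1, 5 genes of the set were called, Idh2, Dlat and Aco1 among them, and 571 genes in all, and without control library 1, Dlat alone of the set and 89 in all. The 2 libraries of an Igf2bp3-RIP group differed far more than those of other assays. The common biological coefficient of variation was 25.4% per gene against 2.48% in RNA and 5.74% in m6A-RIP. Differences between Igf2bp3-RIP replicates 1 and 2 correlated between the groups at r = 0.70 over 19465 peaks. With the replicate number as a block, Dlat and Aco1 were called relative to input, as given at the end.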

How the data were processed

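The series holds 14 libraries of control and Lin28a+ MuSCs. Per the study's methods and the submitters' processing notes, reads were trimmed, aligned with HISAT2 2.0.4 and, for m6A, called into peaks with MACS2 1.4.3; GRCh38 and mm10 are both named as builds. The counting program, and whether replicates were pooled for peaks, are not given in the sources used here. The authors deposited estimated counts per gene for the input, which were rounded to whole numbers for the tests, and whole-number counts per peak or row for the RIPs, without scaling. Peak positions lie within GRCm38.p6 (mm10) gene spans for most genes.

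The Lin28a+ input columns carry m6A-RIP names and the Lin28a+ m6A columns share 1 name, so these were assigned to their group only; the input columns were taken as input because the labels of the Lin28a+ input samples name that table. CPM values were scaled with TMM factors, except those of Lin28a-RIP, which are per table total. Tests used R 4.3.3 with edgeR 4.0.16 (quasi-likelihood, TMM, filterByExpr, Benjamini-Hochberg adjusted p under 0.05 over all features), with DESeq2 1.42.0 as the alternative. Overlaps used GenomicRanges 1.54.1. The tests were tested on simulated data. Between replicates, the chi-square per degree of freedom at mean counts of 20 to 2000 was 1.70 and 1.80 for input genes with whole values, 3.62 to 3.82 for m6A-RIP and Lin28a-RIP, and 33.5 and 36.4 for Igf2bp3-RIP; with no upper limit, which was tried first, it was 62.9 and 2.20, 4.46 to 6.15, and 99.8 and 99.5. At mean counts of 20 to 2000, the input values rest on 512 and 504 of 14837 genes. Several of the 36 genes agreed more closely between input replicates than random sampling of reads usually leaves. In Lin28a+ libraries, Mdh1 was at 243.9 and 243.9 CPM on 1241 and 1194 counts. Dlst was at 77.4 and 77.6 CPM on 394 and 380 counts. The reason was not tested, and it bears on the RNA p-values. Each library was counted as a sample. The genes and lists were chosen with earlier results of these data known. All 36 genes are named, with values in every library for the call of smallest p in each role and for genes with a Lin28a-RIP peak and calls in RNA and m6A-RIP; further genes, and those named for Igf2bp3-RIP and relative to input, were chosen after their values were seen. Lin28a itself was not analysed here.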

Additional observations from a re-analysis of the deposited data

How the results depend on the processing

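The alternatives were DESeq2, DESeq2 size factors, total counts, other count filters, each library left out in turn and, for Igf2bp3-RIP, a replicate block. RNA calls among the 36 genes numbered 16 (DESeq2) to 24 (total counts), against 23, and over all genes 3039 with DESeq2 against 6432. No called value changed direction in any alternative, named or not; over all values of the set, those that changed direction in at least 1 alternative were 3 of 36 in RNA, 5 of 23 in m6A-RIP per gene, 8 of 38 per row, 7 of 23 relative to input, and, for Igf2bp3-RIP, 20 of 40 peaks, 7 of 17 genes and 4 of 17 relative to input. The reversals printed here cover all RNA and m6A-RIP values per gene and, for the other tests, a list of genes drawn up after the alternatives had been run. In RNA, Pdk1 (0.0034) became -0.0049 with DESeq2, -0.0047 with its size factors and -0.020 with at least 10 counts in every library, which also took Me2 to -0.013. With a library left out, Pdk1 ranged from -0.0055 to 0.012, Me2 from -0.041 to 0.051 and Pdk2 from -0.15 to 0.026. In m6A-RIP, Got1 became 0.00075 with DESeq2 and 0.0017 with its size factors, and total counts took Glud1 to -0.071 and Suclg1 to -0.088. With a library left out, Glud1 ranged from -0.31 to 0.31, Got1 from -0.066 to 0.064, Suclg1 from -0.041 to 0.070, Pdhb from -0.081 to 0.00054 and Ogdh from -0.037 to 0.010. In Igf2bp3-RIP, Pdhb ranged from -1.44 to 0.13. Total counts moved the median of all genes by -0.10 in m6A-RIP, where 7 genes of the set were then higher and 7 lower (2395 and 3766 of all genes). For Igf2bp3-RIP relative to input, DESeq2 called 1 gene and leaving out a library 0 to 5. The cause of these differences was not tested.

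With the replicate number as a block, 4 Igf2bp3-RIP peaks and 1 gene (Pdk2, adjusted p = 0.0249) of the set were called, and 1988 peaks and 374 genes in all, against 24 and 13. The differences between replicates 1 and 2 in the groups correlated at r = 0.70 over 19465 peaks, but the labels do not say that the number marks a shared batch. The number in the input column names, which for Lin28a+ are those of m6A-RIP libraries, was used as a block after seeing the data: 23 of the 36 genes and 6534 of all genes were then called in RNA (differences between replicates correlated at r = 0.12 over 11317 genes), and 2 of 17 genes (Dlat, adjusted p = 0.0238, and Aco1, adjusted p = 0.0276) and 727 in all for Igf2bp3-RIP relative to input, against 43. No paired analysis was possible for m6A-RIP because its Lin28a+ columns share 1 name. Over all Igf2bp3-RIP peaks, DESeq2 called 263 and the filter of at least 10 counts 0; per gene, DESeq2 called 115 and total counts 7. Requiring 2 Lin28a-RIP peaks left 12 genes with binding and peaks inside the gene span, a rule added after seeing the data, 16 of 17. Requiring 50% overlap left 14 of the 17 overlapping Lin28a-RIP peaks.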
